A study of Homo sapiens with 12 samples.

Results

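CL1-5 and CL1-0 are related cell lines from a human lung adenocarcinoma (a non-small cell lung cancer), and the comparison described here is that of their messenger RNA levels at rest, without an electric field. It rests on 6 of the 12 arrays of the study, 3 of CL1-5 and 3 of CL1-0, chosen by their titles as those that received no field stimulation, and it covers every gene that passed a filter on dim probe sets (13882 genes). The cells of both groups were kept overnight in DMEM with serum (FBS) under medium flow in a microfluidic chip, then held for 2 h in DMEM without serum at a field of 0 mV/mm, detached with trypsin and stored in RNAlater. The other 6 arrays of the study hold the same lines after 2 h at 300 mV/mm. Each line is 1 cell population, so the 3 arrays of a line, which the labels call biological replicates, measure the spread between cultures of that line and not between tumours or independently derived sublines. In RNA of whole cultures, fewer cells of a type and less RNA per cell cannot be told apart.

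CL1-5 was derived from CL1-0 by repeated selection of cells that cross a coated membrane, and it migrates and invades more readily than its parent. Cancer cells that invade are known for proteases that cut the matrix, for adhesion receptors and cytoskeletal regulators that move the cell, and for transcription factors that replace an epithelial programme with a mesenchymal one.

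The arrays separated by line. Over the genes tested, arrays of the same line correlated at 0.906 to 0.965 and arrays of different lines at 0.787 to 0.852, and the lines separated on principal component 1 (60.3% of the variance). Component 2 (21.4%) set replicate 1 of both lines apart from replicates 2 and 3. The replicate 1 arrays also lacked the signal of the dap control transcript (3.97 and 14.5 units, against 1253 to 1563 units on the other 4) and of 18S ribosomal RNA (49.7 and 67.2 units, against 5577 to 6650 units), which the labels do not explain. Each line has 1 such array.

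Of the 13882 genes tested, 1253 were higher and 1239 lower in CL1-5 at an adjusted p of 0.05, which is 18% of all genes, 9.03% in the higher and 8.93% in the lower direction. With the replicate number as a block, 2319 were higher and 2607 lower. Without replicate 3 of CL1-0 the lower count was 762. For 34% of all genes the 3 arrays of one line lay wholly above the 3 of the other. This held for 1250 of the 1253 higher and 1237 of the 1239 lower genes. A lack of overlap in a called gene thus adds little to its call. The median log2 difference (CL1-5 minus CL1-0) over all genes was -0.03 and the median standard error 0.367. More than 2-fold differences were seen in 1054 of the higher and 910 of the lower genes. After every signal below the median of its own array was raised to that median, 103 of the higher and 41 of the lower genes still differed by more than 16-fold, and 21 and 10 by more than 64-fold. Such folds are written here as "at least", since a signal below the array median is taken as a bound on the level.

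**Figure D1:**
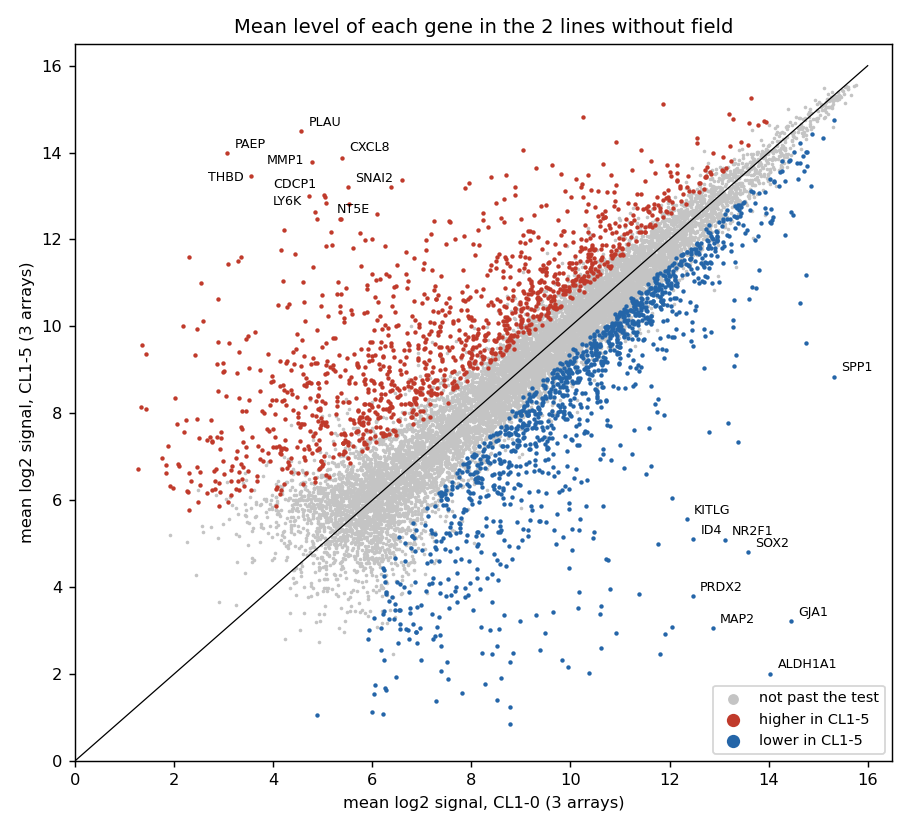
Mean log2 signal of each gene in CL1-0 (horizontal axis, 3 arrays) against CL1-5 (vertical axis, 3 arrays), without field, with the line of equal level drawn in black. Red points passed the test as higher and blue points as lower in CL1-5, grey points did not pass, and the 9 named genes on each side are those with the largest difference after low signals were raised to the array median.

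Many of the genes with the largest differences read near or below the array median in one line and above 1000 units in the other, and among them were surface enzymes, secreted proteins and regulators of the cytoskeleton. Among those higher in CL1-5 was CDCP1, a transmembrane protein phosphorylated by Src kinases, whose signals, in the array's intensity units, were 7.53, 52.2 and 87.1 in CL1-0 against 11054, 7004 and 7553 in CL1-5. The mean level was thus at least 119-fold higher in CL1-5, with a log2 difference of 8.01 ± 0.73 (SE, n = 3 and 3; adjusted p = 1.6e-05). LY6K, a GPI-anchored protein normally made in the testis, gave 4.01, 87.8 and 52.8 in CL1-0 against 6863, 8061 and 9782 in CL1-5. Every CL1-5 array exceeded every CL1-0 array by far, and the mean level was at least 114-fold higher (adjusted p = 5.7e-05).

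The surface enzymes NT5E, which makes adenosine from AMP, and ANPEP, an aminopeptidase, were likewise near or below the array median in CL1-0. NT5E gave 17.7, 59.2 and 34.9 in CL1-0 against 10302, 7560.2 and 6714 in CL1-5 (at least 127-fold higher, adjusted p = 2.8e-05). ANPEP gave 31.5, 7.16 and 28.3 in CL1-0 against 8842, 3396 and 3530.1 in CL1-5 (at least 74.9-fold higher, adjusted p = 9.2e-06). IGFBP4, a secreted protein that binds insulin-like growth factors, gave 209, 68.3 and 39.7 in CL1-0 against 31801, 5079 and 5135 in CL1-5, and replicate 1 was the highest array in each line. Its log2 difference was 6.83 ± 0.79 (adjusted p = 8.8e-05).

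The signals of PLEK2, a pleckstrin protein of the membrane cytoskeleton, were 19.5, 30.3 and 43 in CL1-0 against 6396, 4344 and 6657 in CL1-5 (at least 90.2-fold higher). EVA1A, a membrane protein linked to autophagy, gave 71.9, 10.01 and 64.7 in CL1-0 against 2780.2, 5704 and 6316 in CL1-5 (at least 70.8-fold higher). The transcriptional repressor SNAI2, a driver of epithelial-mesenchymal transition, gave 31.5, 66.8 and 45.5 in CL1-0 against 8907, 8836 and 10585 in CL1-5 (at least 144-fold higher, adjusted p = 2.4e-07). In none of these genes did the lines overlap, which was a condition for the 20 largest differences in each direction. The trypsinogen genes PRSS2 and PRSS3 belong to a family of near-identical copies and their probe sets may not separate them. They read 41.4, 40.1 and 40.3 in CL1-0 against 7074, 5658 and 4482 in CL1-5 for PRSS3, and 30.6, 64.7 and 35.5 in CL1-0 against 4933, 11513 and 3278 in CL1-5 for PRSS2.

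In the other direction stood genes with strong signals in CL1-0. SPP1, the secreted matrix protein osteopontin, gave 49731, 35482 and 38922 in CL1-0 against 297, 469 and 687 in CL1-5. It was 89.5-fold lower in CL1-5 (log2 difference -6.48 ± 0.32, adjusted p = 2.8e-07) yet stayed above the array median there. MAP2, a microtubule-associated protein of neurons, gave 5272, 7462 and 10633 in CL1-0 against 5.82, 24.7 and 4.01 in CL1-5 (at least 112-fold lower), and NEFH, the heavy neurofilament subunit, gave 4553, 5485 and 3018 in CL1-0 against 0.77, 22.8 and 27 in CL1-5 (at least 63.2-fold lower). Both neuronal cytoskeleton genes were below the array median on all 3 CL1-5 arrays. SOST, the secreted Wnt antagonist sclerostin, gave 3779, 3427 and 4453 in CL1-0 against 5.69, 32.7 and 2.32 in CL1-5 (at least 57.8-fold lower, adjusted p = 2.0e-05).

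TPD52L1, a vesicle-associated protein, gave 9312, 10447 and 12581 in CL1-0 against 181, 226 and 102 in CL1-5 (66.5-fold lower). SKIDA1, a gene with a SKI/DACH domain, gave 1798, 3630.1 and 2933 in CL1-0 against 5.23, 44.3 and 12.8 in CL1-5 (at least 40.02-fold lower). ANXA1, an anti-inflammatory phospholipid-binding annexin, fell from 26419, 27651 and 28793 in CL1-0 to 1010.0, 812 and 583 in CL1-5, with a log2 difference of -5.14 ± 0.26. SKIDA1 was below the array median on all 3 CL1-5 arrays, while ANXA1 and TPD52L1 stayed above it.

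For PRDX2 and MYL9 the value depends on the probe set read. PRDX2, a cytosolic peroxidase, gave 3226, 6663 and 8387 in CL1-0 against 12.1, 11.5 and 19.1 in CL1-5 on the probe set read here, but its 3 probe sets gave log2 differences from -8.67 to 0.08. MYL9, the regulatory light chain of smooth muscle and non-muscle myosin, gave 7970.3, 2155 and 2688 in CL1-0 against 2.54, 10.6 and 6.24 in CL1-5, and its 2 probe sets gave log2 differences from -9.34 to -1.41. The size of the difference thus varied with the probe set for both genes, and 1 PRDX2 probe set showed none.

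**Figure D2:**
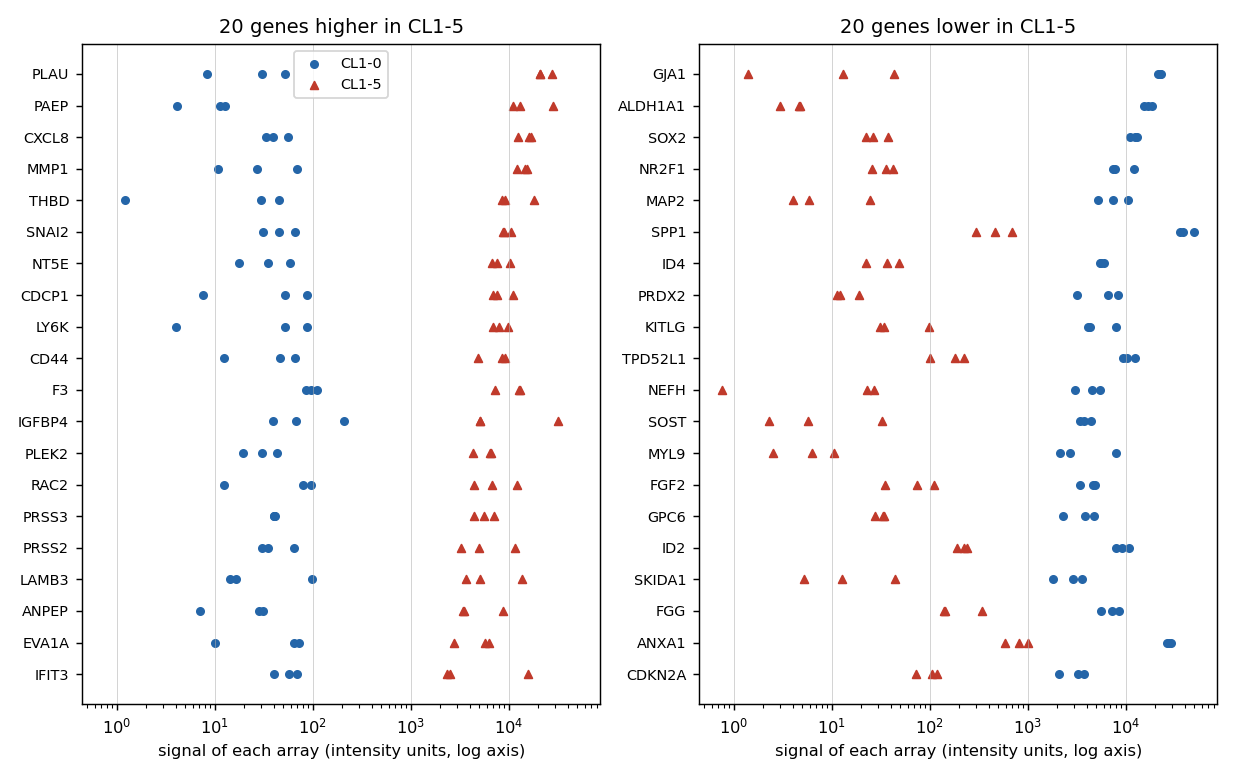
Signal of each array (horizontal log axis, intensity units) for the 20 genes with the largest difference in each direction. Circles are the 3 CL1-0 arrays and triangles the 3 CL1-5 arrays. Only genes in which the lines do not overlap could be chosen.

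The lung and epithelial markers did not all move one way. Of the 13 markers of lung adenocarcinoma and surfactant that were tested, 1 was higher and 3 lower in CL1-5, with a median log2 difference of -0.30. With the replicate block 2 were higher. FOXA1 and FOXA2, pioneer factors of the endoderm, went in opposite directions. FOXA1 gave 1486, 1780.3 and 1974 in CL1-0 against 15.7, 42.8 and 22 in CL1-5 (at least 26-fold lower, adjusted p = 1.1e-06). FOXA2 gave 19.3, 106 and 26.7 in CL1-0 against 723, 405 and 436 in CL1-5 (at least 6.62-fold higher, adjusted p = 0.0016). The lines did not overlap in either gene.

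EPCAM, the epithelial adhesion molecule, gave 138, 846 and 1539 in CL1-0 against 42.5, 56.2 and 19.8 in CL1-5 (at least 8.43-fold lower), and all 3 CL1-5 arrays were below the array median. The surfactant protein gene SFTPD and the club cell gene SCGB1A1 were below the array median on all 6 arrays. NKX2-1, the master factor of lung identity, read 129 to 197 units in CL1-0 and 70.5 to 167 units in CL1-5. It was above the array median, which was 60.7 to 70.1 units, on all 6 arrays, and its 2 probe sets gave log2 differences from -2.57 to -0.55. The keratins KRT8 and KRT18 of simple epithelia were present in both lines. KRT18 read 2422, 14924 and 7964 units in CL1-0 and 20908.5, 16159 and 13748 units in CL1-5, and the lines overlapped. KRT8 read 211, 1880.3 and 1017 units in CL1-0 and 4068, 3549 and 2445 units in CL1-5, a log2 difference of 2.15 that did not pass but did with the replicate block.

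Markers of other cell types were also read. None of the 5 leukocyte markers tested passed, and PTPRC, CD14 and LYZ were below the array median on all 6 arrays. Of 5 smooth muscle markers tested 0 were higher and 1 lower, of 7 fibroblast markers 1 was higher and 0 lower, and the 1 squamous marker tested did not pass. Of 6 neuroendocrine markers tested, 1 was higher and 2 lower in CL1-5, with a median log2 difference of -0.04. Genes called higher numbered 0 without CL1-0 replicate 2. The summed signal of the 9 on the array was 25970.0 to 38056 units in CL1-0 and 11061 to 24267 units in CL1-5, most of it from UCHL1, a ubiquitin hydrolase of neurons, which gave 36331, 24777 and 28650.0 in CL1-0 against 12495, 8896 and 8063 in CL1-5. ENO2 went the other way, with 709, 299 and 648 in CL1-0 against 10907, 1109 and 3130 in CL1-5. DLL3 was also higher on every CL1-5 array. Of 6 endothelial markers tested, 3 were higher and 0 lower in CL1-5, with a median log2 difference of 3.48. That median was 2.11 after signals below the array median were raised to it. Without the filter on dim probe sets, 3 of 9 were higher and 0 lower, with a median of 2.05. TIE1, CLDN5 and ESAM were below the array median on all 3 CL1-0 arrays. TIE1, a receptor tyrosine kinase, gave 2.07, 2.51 and 3.01 in CL1-0 against 365, 272 and 229 in CL1-5 (at least 4.49-fold higher). CLDN5, a tight junction claudin, gave 21.9, 20.4 and 15.5 in CL1-0 against 1411, 247 and 529 in CL1-5, and ESAM, an adhesion molecule, gave 4.54, 18.6 and 5.91 in CL1-0 against 1367, 248 and 362 in CL1-5. Replicate 1 was the highest CL1-5 array in all 3 genes. Of the defining endothelial markers, CDH5 and VWF stayed below the array median on all 6 arrays, while PECAM1 was above it on all 6, at 142, 101 and 85.2 in CL1-0 against 1120.5, 252 and 311 in CL1-5. Its log2 difference of 2.05 ± 0.75 did not pass but did with the replicate block, and the lines did not overlap. ERG was also above it on all 6 arrays, and the summed signal of the 9 endothelial markers on the array was 287 to 404 units in CL1-0 and 1320 to 4495 units in CL1-5. The part of other cells in these values was not tested.

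Gene families were read next, each list by how many of its tested members passed in each direction against the 9.03% and 8.93% of all genes. The lists were drawn up with earlier results of these data known, so the counts describe the families and are no test of them.

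**Figure D3:**
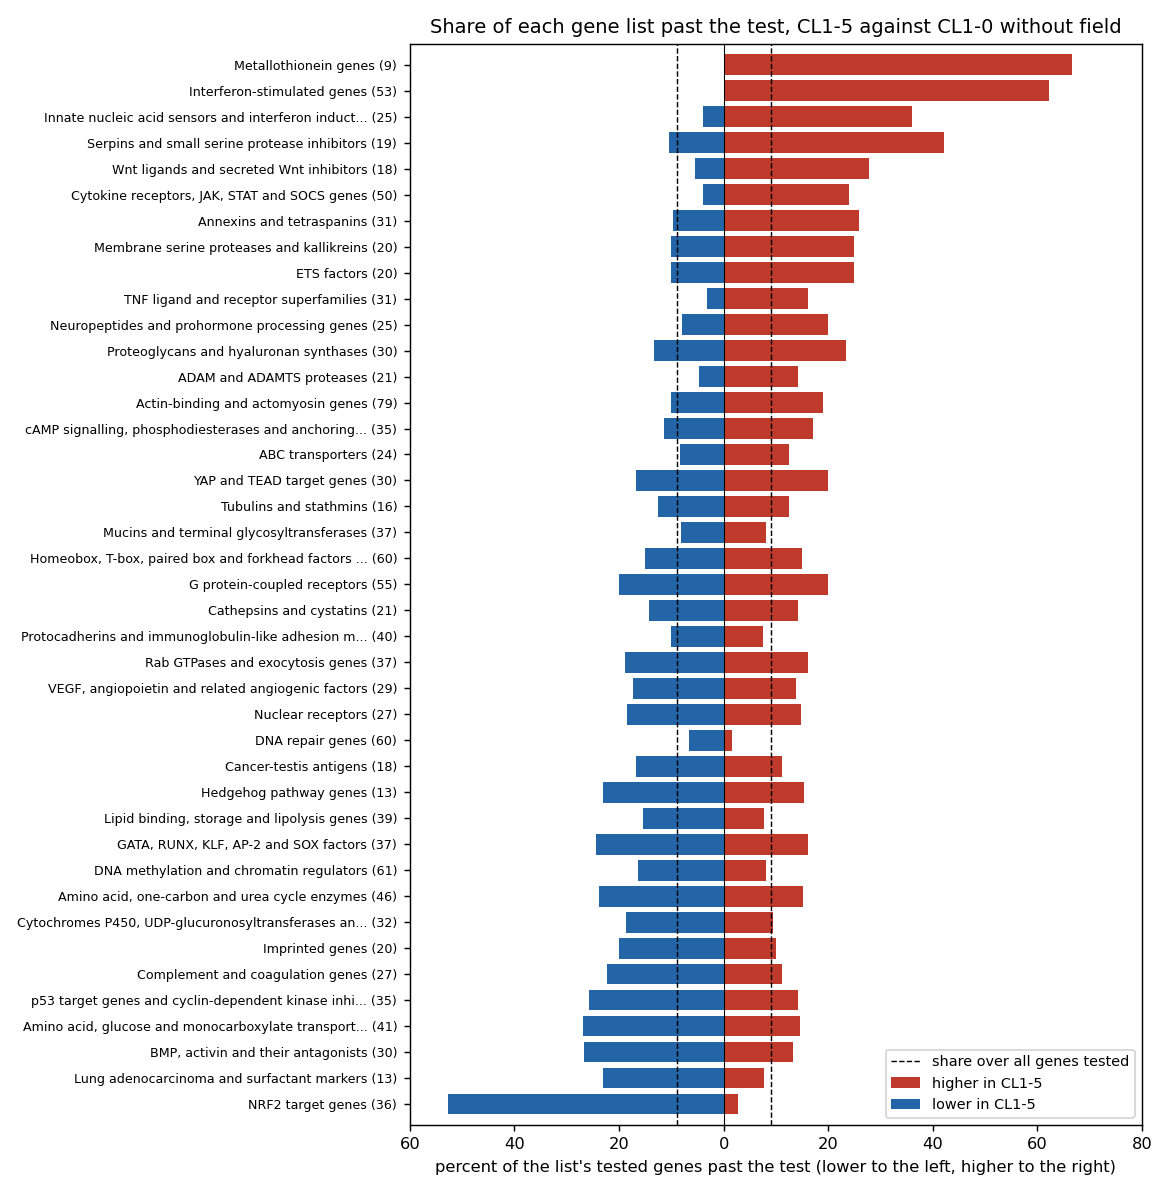
Percent of the tested genes of each list that were higher (red, to the right) or lower (blue, to the left) in CL1-5, for lists with at least 9 tested genes (number in brackets). Dashed lines mark the shares over all genes tested, 9.03% and 8.93%, and metallothionein and interferon-stimulated genes lie farthest to the higher side and NRF2 target genes farthest to the lower side.

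Transcription factors of cell identity differed in both directions. Of the 37 GATA, RUNX, KLF, AP-2 and SOX factors tested, 6 were higher and 9 lower in CL1-5, with a median log2 difference of -0.17. The number lower became 5 without CL1-5 replicate 3. SOX9, a factor of lung progenitors and cartilage, gave 131, 339 and 151 in CL1-0 against 8179, 4460.2 and 4302 in CL1-5 (log2 difference 4.84 ± 0.44, adjusted p = 1.5e-05). RUNX2, which drives bone differentiation, gave 12.1, 24.2 and 51.8 in CL1-0 against 582, 599.7 and 731 in CL1-5 (at least 10.04-fold higher). Within the SOX family SOX7 also rose, while SOX1, SOX2, SOX5 and SOX8 fell. For SOX2 the size varied, since its 4 probe sets gave log2 differences from -8.77 to -0.84.

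SOX8 gave 327, 321 and 278 in CL1-0 against 3.42, 3.15 and 3.67 in CL1-5 (at least 4.61-fold lower), and SOX1 gave 497, 326 and 488 in CL1-0 against 111, 91 and 127 in CL1-5 (log2 difference -1.98 ± 0.32). TFAP2C, an AP-2 factor of trophoblast and breast epithelium, gave 219.5, 345 and 199 in CL1-0 against 787, 1403 and 1466 in CL1-5 (log2 difference 2.25 ± 0.39). The lines did not overlap in any of these genes.

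Of the 20 ETS factors, a family of activators that includes regulators of vessels, blood and invasion, 5 were higher and 2 lower in CL1-5, with a median log2 difference of 0.29. ETS1, a factor that activates protease genes, gave 432, 932 and 972 in CL1-0 against 5663, 6720.4 and 9274 in CL1-5 (log2 difference 3.27 ± 0.48, adjusted p = 5.1e-04), and ELK3, a ternary complex factor, gave 1768, 2279.6 and 1838 in CL1-0 against 7159.6, 10124 and 12933 in CL1-5 (log2 difference 2.33 ± 0.43). FLI1, best known in endothelium and blood, gave 45.5, 20.3 and 28.6 in CL1-0 against 264, 205 and 212 in CL1-5 (at least 3.57-fold higher). On the lower side ETV1 gave 1036, 577 and 717 in CL1-0 against 110.2, 214 and 217 in CL1-5 (log2 difference -2.13 ± 0.41).

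Developmental factors with homeobox, T-box, paired box or forkhead domains, outside the HOX clusters, passed in both directions: of 60 tested, 9 were higher and 9 lower in CL1-5, with a median log2 difference of 0.02. FOXF1, a factor of lung mesenchyme, gave 249, 222 and 372 in CL1-0 against 2135, 1944 and 1420.5 in CL1-5 (log2 difference 2.72 ± 0.25, adjusted p = 1.7e-05). FOXD1, a factor of kidney stroma, gave 2447, 1188 and 1549 in CL1-0 against 8134, 3821 and 6556 in CL1-5 (log2 difference 1.83 ± 0.33). MSX1, a target and partner of BMP signalling, gave 1182, 733 and 892 in CL1-0 against 3311, 2123 and 2009.7 in CL1-5 (log2 difference 1.40 ± 0.27). All 3 were expressed in both lines and higher on every CL1-5 array. The kidney progenitor factor SIX2 gave 5.96, 25.4 and 43.2 in CL1-0 against 395, 294 and 279 in CL1-5 (at least 5.04-fold higher), and its 2 probe sets gave log2 differences from 1.64 to 4.09. MEIS1, a partner of HOX proteins, gave 733, 496 and 320.4 in CL1-0 against 163, 172 and 166 in CL1-5 (log2 difference -1.55 ± 0.35).

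Of 61 DNA methylation and chromatin regulators tested, 5 were higher and 10 lower in CL1-5, with a median log2 difference of -0.13. The count of higher genes was 3 without CL1-0 replicate 2 or 3 or CL1-5 replicate 1 or 2, 2 without CL1-5 replicate 3 and 11 with the replicate block. DNMT3B, which places methyl groups on unmethylated DNA, gave 1724, 1251 and 1149.9 in CL1-0 against 511, 347 and 396 in CL1-5 (log2 difference -1.71 ± 0.31, adjusted p = 0.0022). HDAC9, a class IIa histone deacetylase, gave 603, 759 and 1260.4 in CL1-0 against 12.6, 35.5 and 72 in CL1-5 (at least 11.9-fold lower). ARID5B, a DNA-binding partner of a histone demethylase, gave 4279, 2864 and 3369 in CL1-0 against 182, 278 and 360.4 in CL1-5 (log2 difference -3.72 ± 0.28, adjusted p = 4.0e-06), and its 3 probe sets gave log2 differences from -3.72 to -1.43. All 3 were lower on every CL1-5 array. SETD7, a lysine methyltransferase, took the opposite direction with 357, 480.3 and 332 in CL1-0 against 1108, 1511 and 1207 in CL1-5 (log2 difference 1.72 ± 0.22).

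Of 27 nuclear receptors tested, 4 were higher and 5 lower in CL1-5, with a median log2 difference of -0.47. Those higher in CL1-5 numbered 2 without CL1-0 replicate 1 or 2 or CL1-5 replicate 1 or 3 and 7 with the replicate block. Lower genes numbered 3 without CL1-0 replicate 2 or CL1-5 replicate 3 and 9 with the replicate block. PPARG, the receptor for fatty acids that drives fat cell differentiation, gave 131, 142 and 86.3 in CL1-0 against 1798, 902 and 912 in CL1-5 (log2 difference 3.28 ± 0.43, adjusted p = 2.2e-04). The retinoic acid receptor RARB gave 1214, 1301 and 1322 in CL1-0 against 37, 73.1 and 73.4 in CL1-5 (log2 difference -4.45 ± 0.27, adjusted p = 9.0e-07). NR2F1, an orphan receptor induced by retinoic acid, gave 12283, 7425 and 7713 in CL1-0 against 25.6, 36 and 42.1 in CL1-5 (at least 133-fold lower). CYP26A1, the enzyme that degrades retinoic acid and is itself a target of the retinoic acid receptors, gave 2018, 1177 and 1176 in CL1-0 against 54.4, 15.1 and 52.9 in CL1-5 (at least 21.1-fold lower). RARB, NR2F1 and CYP26A1 were set together here after their values were seen.

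The BMP family, growth factors that act through SMAD proteins and induce the ID genes, is read here with activin. The genes include ligands, antagonists and target genes. Of 30 tested, 4 were higher and 8 lower in CL1-5, with a median log2 difference of -0.17. All 4 ID genes, which encode dimerisation partners that block basic helix-loop-helix factors, fell. ID1 gave 20950.3, 22429 and 25703 in CL1-0 against 5592, 6359 and 6229.9 in CL1-5 (log2 difference -1.92 ± 0.15). ID2 gave 10897, 7981 and 9194 in CL1-0 against 226, 242 and 189 in CL1-5 (log2 difference -5.41 ± 0.29). ID3 gave 11427, 13654 and 16576 in CL1-0 against 1383, 2484 and 1965 in CL1-5 (log2 difference -2.86 ± 0.29).

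ID4 gave 5532, 5667 and 5967 in CL1-0 against 22.3, 36.7 and 48.9 in CL1-5 (at least 85.6-fold lower, adjusted p = 2.3e-05), and unlike ID1 to ID3 it was below the array median on all 3 CL1-5 arrays. SMAD6, an inhibitor that BMP signalling induces, gave 413, 241 and 431 in CL1-0 against 84.6, 91.5 and 58.1 in CL1-5 (log2 difference -2.19 ± 0.51). The BMP antagonist NOG gave 42.9, 154 and 88.5 in CL1-0 against 978, 1168 and 2435 in CL1-5 (log2 difference 4.07 ± 0.60, adjusted p = 5.8e-04) and INHBA, the subunit of activin A, gave 34.9, 20.8 and 27.3 in CL1-0 against 357, 448 and 455 in CL1-5 (at least 6.61-fold higher). NOG and INHBA were thus higher in the line in which the ID genes were lower.

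Among Hedgehog pathway genes, 2 were higher and 3 lower in CL1-5, with a median log2 difference of 0.12 over 13 tested. The higher count was 1 without CL1-5 replicate 2 or 3. The pathway's transcription factor and target GLI1 gave 202, 171 and 248 in CL1-0 against 39.7, 11.2 and 7.57 in CL1-5 (at least 3.06-fold lower, adjusted p = 0.001). Of growth factors, KITLG, the ligand of KIT, gave 4349, 4089 and 7980.0 in CL1-0 against 34.4, 99.1 and 31 in CL1-5 (at least 68.6-fold lower). FGF2 gave 4875, 3395 and 4695 in CL1-0 against 74.4, 112 and 35.2 in CL1-5 (at least 52.9-fold lower), whereas FGF1 gave 16.9, 20.04 and 53.5 in CL1-0 against 578, 291 and 436 in CL1-5 (at least 6.63-fold higher). ANGPT2, a ligand of the TIE2 receptor that destabilises vessels, gave 23.1, 27.3 and 22.8 in CL1-0 against 1365, 2516 and 2643 in CL1-5 (at least 33-fold higher, adjusted p = 2.8e-07), and VEGFC, the lymphatic growth factor, gave 1225, 616 and 679 in CL1-0 against 104, 139 and 87.6 in CL1-5 (log2 difference -2.89 ± 0.31). Both FGF ligands and both vessel ligands therefore took opposite directions.

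Wnt proteins are lipid-modified ligands that need the carrier WLS to leave the cell. Of 18 Wnt ligands, carriers and secreted inhibitors tested, 5 were higher and 1 lower in CL1-5, with a median log2 difference of -0.56. The sign of that median depended on low signals. It was -0.09 after signals below the array median were raised to it. With a stricter filter (above the 60th percentile on at least 6 arrays) 7 genes were tested. Of these 4 were higher and 0 lower, with a median of 1.69. Genes called lower numbered 2 without CL1-5 replicate 1 or 3 and 4 with the replicate block. WLS gave 32.5, 110.2 and 81.6 in CL1-0 against 1355, 2043 and 1607 in CL1-5 (log2 difference 4.63 ± 0.47, adjusted p = 3.5e-05). WNT5A, a ligand of the non-canonical branch, gave 965, 612 and 639.8 in CL1-0 against 2045, 2369 and 2640.1 in CL1-5 (log2 difference 1.69 ± 0.22). Of the inhibitors, DKK3 gave 157, 229.7 and 232 in CL1-0 against 4357, 4614 and 3508 in CL1-5 (log2 difference 4.35 ± 0.43), and SFRP1 gave 367, 459 and 386 in CL1-0 against 16502, 4911 and 6005 in CL1-5 (log2 difference 4.29 ± 0.44), with replicate 1 the highest CL1-5 array, and the 4 probe sets gave log2 differences from 1.30 to 4.29. A ligand, the carrier and both inhibitors were thus higher on every CL1-5 array, while the antagonist SOST was lower.

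Targets of YAP and TEAD, the factors that the Hippo kinases hold back, split. Of 30 tested, 6 were higher and 5 lower in CL1-5, with a median log2 difference of 0.41. The number higher became 15 with the replicate block. The count of lower genes was 3 without CL1-0 replicate 1 or 3. AXL, a receptor tyrosine kinase, gave 255, 207 and 236 in CL1-0 against 2788, 4279.8 and 6873 in CL1-5 (log2 difference 4.23 ± 0.38, adjusted p = 1.3e-05). CCN2, the matricellular protein CTGF, gave 44024, 18989 and 25506 in CL1-0 against 2228, 2734 and 2029.9 in CL1-5 (log2 difference -3.58 ± 0.34, adjusted p = 2.0e-05), and AMOTL2, an inhibitor of YAP, gave 2694, 1791 and 3156 in CL1-0 against 867, 901 and 1027 in CL1-5 (log2 difference -1.42 ± 0.24). F3 and NT5E, described in their own families, were among the higher members of this list.

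Of 25 neuropeptide and prohormone genes tested, 5 were higher and 2 lower in CL1-5, with a median log2 difference of -0.19. Those higher in CL1-5 numbered 3 without CL1-0 replicate 3 or CL1-5 replicate 2 or 3. Fitted with the replicate block, 4 were lower. STC1, the secreted glycoprotein stanniocalcin, gave 98.4, 89 and 74 in CL1-0 against 1746, 1828 and 2239 in CL1-5 (log2 difference 4.48 ± 0.43, adjusted p = 2.4e-05). GAL, the precursor of galanin, gave 112, 38.3 and 45.6 in CL1-0 against 826, 581 and 319 in CL1-5 (at least 7.06-fold higher). NTS, the precursor of neurotensin, gave 1242, 752 and 387 in CL1-0 against 5.39, 5.39 and 15.5 in CL1-5 (at least 10.7-fold lower, adjusted p = 2.1e-04), and CHGA, a core protein of secretory granules, gave 247, 224 and 241 in CL1-0 against 75.8, 33 and 64 in CL1-5 (at least 3.44-fold lower). Both NTS and CHGA were above the array median on all CL1-0 arrays.

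Receptors on the cell surface that couple to G proteins read hormones, lipids and chemokines. Of 55 G protein-coupled receptors tested, 11 were higher and 11 lower in CL1-5, with a median log2 difference of -0.15. The lower count was 7 without CL1-5 replicate 2 or 3. FZD6, a Frizzled receptor of planar cell polarity, gave 74.6, 142 and 103 in CL1-0 against 3304, 3137 and 3599 in CL1-5 (log2 difference 5.02 ± 0.31, adjusted p = 8.8e-07), while FZD1 gave 896, 1385 and 1579 in CL1-0 against 433, 368 and 281 in CL1-5 (log2 difference -1.82 ± 0.29). LPAR3, a receptor of lysophosphatidic acid, gave 193, 354 and 95.9 in CL1-0 against 859, 1955 and 1299.7 in CL1-5 (log2 difference 2.79 ± 0.59). ADGRE5, the adhesion receptor CD97, gave 2735, 2034 and 1845 in CL1-0 against 298, 46.1 and 89.1 in CL1-5 (log2 difference -4.35 ± 0.66). ADORA2B, an adenosine receptor, gave 1713, 1197 and 1248 in CL1-0 against 5583, 2740.4 and 2880.3 in CL1-5 (log2 difference 1.37 ± 0.31), so that both NT5E and this receptor of its product were higher in CL1-5.

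Of 50 cytokine receptors and JAK, STAT and SOCS genes tested, 12 were higher and 2 lower in CL1-5, with a median log2 difference of 0.41. Genes called higher numbered 7 without CL1-0 replicate 3, 6 without CL1-5 replicate 2 and 20 with the replicate block. The number lower became 1 without CL1-0 replicate 1, 2 or 3 or CL1-5 replicate 2 and 5 with the replicate block. IL1R1, the receptor of interleukin-1, gave 377, 525 and 539.7 in CL1-0 against 1057, 1849.7 and 1319 in CL1-5 (log2 difference 1.53 ± 0.33). IFNLR1, the receptor chain for interferon lambda, gave 41.3, 72.8 and 64.6 in CL1-0 against 295, 384 and 229.5 in CL1-5 (log2 difference 2.35 ± 0.45). The lines did not overlap in either receptor. Of 31 TNF ligands and receptors tested, 5 were higher and 1 lower in CL1-5, with a median log2 difference of 0.42. A replicate block put 9 genes higher. Those lower in CL1-5 numbered 0 without CL1-0 replicate 1 or 3. CD70, the ligand of CD27, gave 158, 151 and 75.5 in CL1-0 against 629, 491 and 772 in CL1-5 (log2 difference 2.35 ± 0.51), and the death receptor FAS gave 64, 40.4 and 42 in CL1-0 against 155, 236 and 173 in CL1-5 (at least 2.93-fold higher).

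Of 79 actin-binding and actomyosin genes tested, 15 were higher and 8 lower in CL1-5, with a median log2 difference of 0.22. Fitted with the replicate block, 27 were higher. With the replicate block 15 were lower. MYO10, the motor of filopodia, gave 61, 83.7 and 50.1 in CL1-0 against 2876, 4494 and 5447 in CL1-5 (at least 58.7-fold higher, adjusted p = 1.5e-06). CAPG, a gelsolin-related capping protein, gave 111, 79.1 and 58.3 in CL1-0 against 1341, 763 and 701 in CL1-5 (log2 difference 3.49 ± 0.64). TAGLN2, a transgelin, gave 2325, 2111 and 1216 in CL1-0 against 14195, 9736 and 10883 in CL1-5 (log2 difference 2.66 ± 0.26). PDLIM1, an adaptor of actinin, gave 1223, 1165 and 653 in CL1-0 against 6143, 6893 and 6390.0 in CL1-5 (log2 difference 2.73 ± 0.24).

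MSN, the linker moesin, gave 5219, 4866 and 3667 in CL1-0 against 14536, 8316 and 9725 in CL1-5 (log2 difference 1.22 ± 0.23), whereas its relative RDX, radixin, gave 13772, 13234 and 15707 in CL1-0 against 4168, 4094 and 4863 in CL1-5 (log2 difference -1.70 ± 0.15), and its 4 probe sets gave log2 differences from -1.70 to -0.64. ENAH, which lengthens actin filaments at the leading edge, gave 11577, 11282 and 14559 in CL1-0 against 1491, 1551 and 1747 in CL1-5. Its log2 difference was -2.96 ± 0.18 (adjusted p = 8.6e-07), and its 6 probe sets gave log2 differences from -3.58 to -1.11. The ezrin-radixin-moesin pair was thus in opposite directions, and ENAH was lower on every CL1-5 array.

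Serine proteases and the serpins that trap them were read together. Of 20 membrane serine proteases and kallikreins tested, 5 were higher and 2 lower in CL1-5, with a median log2 difference of 0.17. PRSS23, a secreted serine protease, gave 934, 2346 and 1905 in CL1-0 against 17805, 13169.9 and 11039 in CL1-5 (log2 difference 3.09 ± 0.37, adjusted p = 1.3e-04). PRSS21, the GPI-anchored testisin, gave 564, 752 and 639 in CL1-0 against 4516, 4818 and 3597 in CL1-5 (log2 difference 2.72 ± 0.21). KLK10 gave 187, 118 and 144 in CL1-0 against 9.60, 17.9 and 6.60 in CL1-5 (at least 2.20-fold lower). Of 19 serpins and small inhibitors, 8 were higher and 2 lower in CL1-5, with a median log2 difference of 0.34. Genes called higher numbered 5 without CL1-0 replicate 3.

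SERPINB1, an inhibitor of neutrophil elastase, gave 12.4, 4.62 and 7.08 in CL1-0 against 1874, 1574 and 1375 in CL1-5 (at least 25.2-fold higher, adjusted p = 4.5e-06). SERPINB9, the inhibitor of granzyme B, gave 7.99, 4.22 and 27.4 in CL1-0 against 2195, 3776 and 2988 in CL1-5 (at least 46.1-fold higher), and its 3 probe sets gave log2 differences from 2.22 to 8.23. SERPING1, the C1 inhibitor of complement, gave 602, 253 and 262 in CL1-0 against 16.8, 25.7 and 4.62 in CL1-5 (at least 5.11-fold lower). Both clade B serpins were below the array median on all 3 CL1-0 arrays.

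Of 27 complement and coagulation genes tested, 3 were higher and 6 lower in CL1-5, with a median log2 difference of -0.22. F3, tissue factor, the cell-surface trigger of clotting, gave 85.8, 110.5 and 96.7 in CL1-0 against 7324, 13071 and 12633 in CL1-5 (109.7-fold higher, adjusted p = 2.3e-06). FGG, the gamma chain of fibrinogen, gave 5652, 7292 and 8578 in CL1-0 against 143, 341 and 139 in CL1-5 (37.4-fold lower, adjusted p = 5.7e-05). PROC, the zymogen of activated protein C, gave 178, 605 and 879 in CL1-0 against 3.97, 6.97 and 6.34 in CL1-5 (at least 6.81-fold lower), and TFPI2, a Kunitz inhibitor, gave 375, 822 and 803 in CL1-0 against 22.4, 13.4 and 3.58 in CL1-5 (at least 9.40-fold lower). Tissue factor was thus high in CL1-5 and the 3 liver-type or inhibitor genes in CL1-0.

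Of 21 cathepsins and cystatins tested, 3 were higher and 3 lower in CL1-5, with a median log2 difference of 0.18. The number higher became 5 with the replicate block. The count of lower genes was 1 without CL1-0 replicate 3 or CL1-5 replicate 3 and 5 with the replicate block. CTSB, a lysosomal cysteine protease, gave 4617, 4943 and 4038 in CL1-0 against 20362, 11250.2 and 10355 in CL1-5 (log2 difference 1.56 ± 0.29, adjusted p = 0.003), whereas CTSH, an aminopeptidase that processes surfactant protein in the lung, gave 742, 1113 and 775 in CL1-0 against 115, 102 and 86.8 in CL1-5 (log2 difference -3.10 ± 0.27, adjusted p = 1.2e-05). Among 21 ADAM and ADAMTS proteases, 3 were higher and 1 lower in CL1-5, with a median log2 difference of -0.21. Blocking on replicate, 3 were lower. ADAM19, a membrane metalloprotease, gave 97.4, 93.7 and 92 in CL1-0 against 725, 501 and 372 in CL1-5 (log2 difference 2.44 ± 0.29), and ADAMTS1, a secreted one, gave 841, 557 and 509 in CL1-0 against 220.3, 71.4 and 89.9 in CL1-5 (log2 difference -2.47 ± 0.53).

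Matrix proteoglycans and the enzymes of hyaluronan included genes that moved in opposite directions. Of 30 tested, 7 were higher and 4 lower in CL1-5, with a median log2 difference of 0.01. The syndecans SDC1, SDC2 and SDC4, transmembrane carriers of heparan sulfate, rose. SDC4 gave 415, 482 and 466 in CL1-0 against 3320.1, 3147 and 2927 in CL1-5 (log2 difference 2.79 ± 0.23, adjusted p = 8.4e-06) and SDC1 gave 661, 867 and 575 in CL1-0 against 8563, 2252 and 2302 in CL1-5 (log2 difference 2.36 ± 0.47), with replicate 1 the highest of the CL1-5 arrays. The GPI-anchored glypicans GPC3 and GPC6 fell. GPC6 gave 2286, 3855 and 4709 in CL1-0 against 27.5, 34 and 33.7 in CL1-5 (at least 51.8-fold lower, adjusted p = 3.1e-07), and GPC3 gave 1109.5, 442 and 588 in CL1-0 against 28.9, 97.8 and 34.8 in CL1-5 (at least 8.73-fold lower).

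SULF2, which removes 6-O-sulfate from heparan sulfate outside the cell, gave 77.5, 78.2 and 61.4 in CL1-0 against 873, 935 and 629.5 in CL1-5 (log2 difference 3.48 ± 0.31), while HS6ST2, which adds it, gave 699, 1007 and 1056 in CL1-0 against 50.2, 87.4 and 98.2 in CL1-5 (log2 difference -3.58 ± 0.43). CD44, the hyaluronan receptor, gave 46.2, 66.3 and 12.4 in CL1-0 against 4863, 8629 and 9230.0 in CL1-5 (at least 112-fold higher), and its 9 probe sets gave log2 differences from 2.29 to 7.76. For HAS3, a hyaluronan synthase, the probe set read here gave 117, 134 and 158 in CL1-0 against 6843, 2392 and 2523 in CL1-5, but its 2 probe sets gave log2 differences from -0.12 to 4.68, so the direction rests on 1 probe set.

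Annexins bind membranes in the presence of calcium and tetraspanins organise membrane domains. Of 31 tested, 8 were higher and 3 lower in CL1-5, with a median log2 difference of 0.12. Higher genes numbered 5 without CL1-0 replicate 3 or CL1-5 replicate 1 or 3. ANXA3 gave 7.95, 11.6 and 5.38 in CL1-0 against 227, 1054 and 786 in CL1-5 (at least 9.07-fold higher, adjusted p = 1.4e-05), opposite to ANXA1. TSPAN5 gave 79.1, 65.6 and 85 in CL1-0 against 887, 697 and 689.6 in CL1-5 (log2 difference 3.31 ± 0.28, adjusted p = 1.0e-05), while TSPAN12, a partner of Norrin signalling, gave 1551, 1198 and 908 in CL1-0 against 46.2, 123 and 107 in CL1-5 (log2 difference -3.81 ± 0.40, adjusted p = 4.4e-05). Within each family, members thus differed in direction.

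Enzymes that build surface glycans passed at a share near that of all genes: of 37 mucins and terminal glycosyltransferases tested, 3 were higher and 3 lower in CL1-5, with a median log2 difference of -0.11. With the replicate block 8 were higher. Genes called lower numbered 1 without CL1-0 replicate 2 or CL1-5 replicate 1 or 3 and 6 with the replicate block. FUT8, which adds the core fucose to N-glycans, gave 419.8, 756 and 623 in CL1-0 against 5362, 3943 and 4912 in CL1-5 (log2 difference 3.01 ± 0.33, adjusted p = 5.6e-05). B3GNT5, which starts the lacto-series glycolipids, gave 1.29, 62.2 and 2.68 in CL1-0 against 811, 1063 and 1645 in CL1-5 (at least 17.6-fold higher, adjusted p = 8.8e-04), and its 2 probe sets gave log2 differences from 3.23 to 7.55.

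Nutrient uptake genes came next. Of 41 transporters of amino acids, glucose and monocarboxylates, 6 were higher and 11 lower in CL1-5, with a median log2 difference of -0.26. The glucose transporters went opposite ways. SLC2A3 gave 26922, 24032 and 25450.4 in CL1-0 against 2994, 886 and 1221 in CL1-5 (log2 difference -4.10 ± 0.39, adjusted p = 2.3e-05), and SLC2A1 gave 1159, 1058 and 1057 in CL1-0 against 2818, 2318 and 2191 in CL1-5 (log2 difference 1.16 ± 0.26). SLC3A2, the heavy chain shared by several amino acid exchangers, gave 3824, 3539.9 and 3571 in CL1-0 against 2168, 1726 and 1729 in CL1-5 (log2 difference -0.97 ± 0.18), while SLC7A7, one of its light chains for cationic amino acids, gave 48, 94 and 57.3 in CL1-0 against 4075, 1752 and 1856 in CL1-5 (at least 32.4-fold higher).

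Of 46 amino acid, one-carbon and urea cycle enzymes, 7 were higher and 11 lower in CL1-5, with a median log2 difference of -0.18. The number higher became 4 without CL1-0 replicate 3 or CL1-5 replicate 3. The count of lower genes was 7 without CL1-0 replicate 3 and 19 with the replicate block. ASNS, which makes asparagine, gave 11486, 11532 and 13579 in CL1-0 against 4752, 3994 and 5596 in CL1-5 (log2 difference -1.36 ± 0.20, adjusted p = 5.7e-04). GLDC, which splits glycine for one-carbon units, gave 423, 883 and 1129 in CL1-0 against 79.1, 176 and 133 in CL1-5 (log2 difference -2.61 ± 0.43), and CTH, which makes cysteine, gave 929, 1307 and 1803 in CL1-0 against 155, 395 and 377 in CL1-5 (log2 difference -2.19 ± 0.46). NNMT, which methylates nicotinamide, gave 55.1, 15.6 and 59.5 in CL1-0 against 558, 662 and 452 in CL1-5 (at least 8.71-fold higher).

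APOE, a lipid carrier of lipoproteins, gave 3085, 2649.7 and 4486 in CL1-0 against 392, 361 and 181 in CL1-5 (log2 difference -3.49 ± 0.33, adjusted p = 2.1e-05) and its chromosomal neighbour APOC1 gave 3107, 3070.0 and 4385 in CL1-0 against 375, 388 and 225 in CL1-5 (log2 difference -3.44 ± 0.29). CPT1A, the gate of fatty acid entry into mitochondria, gave 2124, 2388 and 2552 in CL1-0 against 436, 723 and 478 in CL1-5 (log2 difference -2.14 ± 0.23). Over the 39 genes of lipid binding, storage and lipolysis, 3 were higher and 6 lower in CL1-5, with a median log2 difference of 0.00. Blocking on replicate, 6 were higher. APOE, APOC1 and CPT1A did not overlap between the lines.

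Of 32 cytochromes P450, glucuronosyltransferases, sulfotransferases and regulators tested, 3 were higher and 6 lower in CL1-5, with a median log2 difference of 0.06. Fitted with the replicate block, 5 were higher. AHRR, the repressor that the aryl hydrocarbon receptor induces, gave 291, 420.0 and 519 in CL1-0 against 77.3, 78.8 and 70.5 in CL1-5 (log2 difference -2.40 ± 0.27, adjusted p = 7.4e-05). SULT1A1, a phenol sulfotransferase, gave 749.9, 1014 and 1361 in CL1-0 against 409, 193 and 196 in CL1-5 (log2 difference -2.02 ± 0.39), and its 3 probe sets gave log2 differences from -2.02 to -0.46. CYP4F11, a fatty acid hydroxylase, gave 460.4, 261 and 404 in CL1-0 against 2.87, 3.06 and 2.10 in CL1-5 (at least 5.46-fold lower, adjusted p = 9.0e-04). All 3 were lower on every CL1-5 array.

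Of the lists with at least 9 tested genes, NRF2 targets had the highest share of lower genes. NRF2, the product of NFE2L2, is the transcription factor that turns on antioxidant and detoxifying enzymes when its inhibitor KEAP1 is modified. Of 36 genes in its list, 1 was higher and 19 lower in CL1-5, with a median log2 difference of -0.99. NFE2L2 itself gave 12354, 14389 and 14160.5 in CL1-0 against 3872, 4203 and 4141 in CL1-5 (log2 difference -1.74 ± 0.15, adjusted p = 1.0e-05). HMOX1, haem oxygenase, gave 9646, 8734 and 6388 in CL1-0 against 1959, 2070.1 and 2180.4 in CL1-5 (log2 difference -1.98 ± 0.19), and GCLC, which makes the first bond of glutathione, gave 12889, 11579 and 9759 in CL1-0 against 4134, 3468 and 3615 in CL1-5 (log2 difference -1.60 ± 0.18). The 3 genes stayed above the array median on every CL1-5 array. GSR, which recycles glutathione, gave 3342, 4034 and 2986 in CL1-0 against 441, 926 and 895 in CL1-5 (log2 difference -2.26 ± 0.36, adjusted p = 0.001), and EPHX1, an epoxide hydrolase, gave 2866, 3088 and 2094 in CL1-0 against 801, 575 and 375 in CL1-5 (log2 difference -2.25 ± 0.32). MGST1, a microsomal glutathione transferase and the member that rose, gave 128, 128 and 133 in CL1-0 against 3083, 2667 and 1992 in CL1-5 (log2 difference 4.29 ± 0.23, adjusted p = 3.6e-07). The antioxidant response element, searched as TGACNNNGC on both strands, was in the promoters of 8 of 28 list members in the RefSeq table (28.6%), against 15.3% of genes tested. The share was 26.7% (4 of 15) in members that were lower and 33.3% (4 of 12) in members that did not pass.

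Metallothioneins are small cysteine-rich proteins that bind zinc and copper. Of 9 tested, 6 were higher and 0 lower in CL1-5, with a median log2 difference of 2.91. Their coding sequences are near copies, so probe sets may read more than 1 gene, and the 6 that passed (MT1E, MT1F, MT1G, MT1H, MT1X and MT2A) are next to each other among the tested genes of chromosome 16. MT2A gave 1319.5, 2606 and 2113 in CL1-0 against 28993, 13892 and 18523 in CL1-5 (log2 difference 3.33 ± 0.40, adjusted p = 1.3e-04), and the lowest CL1-5 array was above the highest CL1-0 array.

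Cancer-testis antigens are silent in most adult tissues outside the germ line. Of 18 tested, 2 were higher and 3 lower in CL1-5, with a median log2 difference of 0.05. The higher count was 1 without CL1-0 replicate 1 or CL1-5 replicate 2 or 3 and 4 with the replicate block. The replicate block gave 5 lower. MAGEA11 gave 179, 185 and 97.2 in CL1-0 against 1281, 3701 and 3372 in CL1-5 (log2 difference 4.09 ± 0.49, adjusted p = 1.3e-04), and MAGEA1 gave 11787, 9572 and 8184 in CL1-0 against 3187, 4820.1 and 3598 in CL1-5 (log2 difference -1.35 ± 0.23, adjusted p = 0.0015). MAGE genes are close copies of each other, so their probe sets may not separate them. Of 20 imprinted genes, 2 were higher and 4 lower in CL1-5, with a median log2 difference of -0.13. The number higher became 1 without CL1-0 replicate 2 or 3 or CL1-5 replicate 1 or 3 and 4 with the replicate block. PEG3, a zinc finger gene expressed from the paternal allele, gave 1326, 2067 and 1842 in CL1-0 against 136, 289.9 and 246 in CL1-5 (log2 difference -3.01 ± 0.36, adjusted p = 1.1e-04).

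Of the 35 cell cycle inhibitors and p53 target genes tested, 5 were higher and 9 lower in CL1-5, with a median log2 difference of -0.15. The count of higher genes was 3 without CL1-5 replicate 1. CCND1, cyclin D1, gave 69.4, 72.2 and 89.8 in CL1-0 against 4308, 3211 and 3629.7 in CL1-5 (48.1-fold higher, adjusted p = 1.2e-06). CDKN2A, which encodes the p16 and ARF tumour suppressors, gave 2080.2, 3237 and 3725 in CL1-0 against 72, 119.8 and 107 in CL1-5 (log2 difference -4.91 ± 0.53, adjusted p = 5.5e-05). GDF15, a secreted stress factor, gave 1208, 2404 and 3013 in CL1-0 against 317, 156 and 75.3 in CL1-5 (log2 difference -3.73 ± 0.58). PLK2, a polo-like kinase induced by p53, gave 4146, 2836 and 4266 in CL1-0 against 393, 894 and 1025 in CL1-5 (log2 difference -2.37 ± 0.34). Of 60 DNA repair genes tested, 1 was higher and 4 lower in CL1-5, with a median log2 difference of -0.12, so that 8.33% passed against 18% of all genes. Those higher in CL1-5 numbered 0 without CL1-0 replicate 2 or 3 or CL1-5 replicate 2, 2 without CL1-5 replicate 1 and 4 with the replicate block. Lower genes numbered 2 without CL1-0 replicate 1 or CL1-5 replicate 2, 1 without CL1-0 replicate 2 or 3 or CL1-5 replicate 1 and 12 with the replicate block.

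Neighbours of CDKN2A on chromosome 9, which were chosen by position after their values were seen, were lower too. KLHL9, an adaptor of a ubiquitin ligase, gave 922, 1888 and 2088 in CL1-0 against 52.7, 6.06 and 3.61 in CL1-5 (at least 23-fold lower, adjusted p = 3.4e-04). MTAP, which salvages methionine from polyamine synthesis, gave 256, 349 and 237 in CL1-0 against 47.3, 37.5 and 5.42 in CL1-5 (at least 4.14-fold lower, adjusted p = 0.0023), and its 5 probe sets gave log2 differences from -5.45 to -0.51. Both genes lie on one side of CDKN2A. On the other side, CDKN2B, the gene of p15, and ELAVL2, an RNA-binding protein of neurons, were near the array median in CL1-0 already. CDKN2B gave 66.5, 94 and 125 in CL1-0 against 25, 2.32 and 4.84 in CL1-5 (at least 1.38-fold lower, with a log2 difference of the signals as read of -3.81 ± 0.91, adjusted p = 0.012), and ELAVL2 52.3, 106 and 83.4 in CL1-0 against 18.2, 18.3 and 9.88 in CL1-5 (at least 1.25-fold lower, as read -2.38 ± 0.62 on the log2 scale, adjusted p = 0.02). CDKN2B did not pass without replicate 3 of CL1-0 (log2 difference -3.59). ELAVL2 lost its call on leaving out replicate 2 of CL1-0 (log2 difference -2.15), its replicate 3 (-2.33), or the CL1-5 array of that number (-2.09).

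The stretch was bounded on both sides. FOCAD gave 621, 602 and 469 in CL1-0 against 563, 431 and 854 in CL1-5 and TUSC1 gave 1116, 1337 and 1411 in CL1-0 against 1172, 1760.2 and 1605 in CL1-5, and neither passed the test (adjusted p = 0.89 and 0.66). Between KLHL9 and MTAP, the RNA gene MIR31HG gave 67.2, 40.5 and 29.6 in CL1-0 against 72.5, 61.6 and 79.9 in CL1-5 and did not pass (adjusted p = 0.29). Its CL1-0 signals were already near or below the array median, which left little room to read a lower level.

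Differences in the same direction also gathered on some chromosomes. On chromosome 7, 147 of 660 tested genes (22.3%) were lower and 28 (4.24%) higher, with a median log2 difference of -0.49. On chromosome X, 100 of 447 (22.4%) were lower and 22 (4.92%) higher, with a median of -0.47. On chromosome 4 the lower share was 18.2% (11.6% without CL1-0 replicate 3), and on chromosome 8 the higher share was 16.9%. Over all placed genes the shares were 8.93% lower and 9.01% higher.

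The shift was seen in each replicate: the median difference of the same-numbered arrays was -0.41, -0.52 and -0.59 on chromosome 7 and -0.44, -0.53 and -0.46 on chromosome X, against -0.02, -0.02 and -0.05 over all genes. Leaving out 1 array gave lower shares of 12.1% to 19.7% on chromosome 7 and 15.7% to 19% on chromosome X, against 5.5% to 8.08% over all genes. The lowest value on chromosome 7, over 1.5 times below the share over all 6 arrays, came without replicate 3 of CL1-0, and 2 other arrays also took it that far (13.3% without replicate 2 of CL1-0 and 14.7% without replicate 3 of CL1-5). With the replicate block the lower shares were 44.5% on chromosome 7 and 39.6% on chromosome X, against 18.8% over all genes.

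Neighbouring genes were also compared within chromosomes. Of the genes that were higher, 18.5% had a next tested gene that was higher too, and of the lower genes 19.4% had a lower one, against 9.01% and 8.93% over all placed genes, while 5.86% and 4.78% had a neighbour of the opposite direction. Runs of 4 or more consecutive tested genes of 1 direction numbered 15 for higher (65 genes) and 16 for lower (66 genes). Some are clusters of related genes, such as the metallothioneins, the IFIT genes and the chemokines from CXCL8 to CXCL2. Others join unrelated genes, such as NEBL, MIR1915HG, SKIDA1 and MLLT10 on chromosome 10 (lower) or RAC2, CYTH4, ELFN2 and CARD10 on chromosome 22 (higher), and these runs were picked out after their values were seen. The direction of 2 of these genes depended on the probe set, since for MLLT10 8 probe sets gave log2 differences from -2.35 to 0.11 and for ELFN2 4 probe sets gave log2 differences from -0.94 to 4.99.

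**Figure D4:**
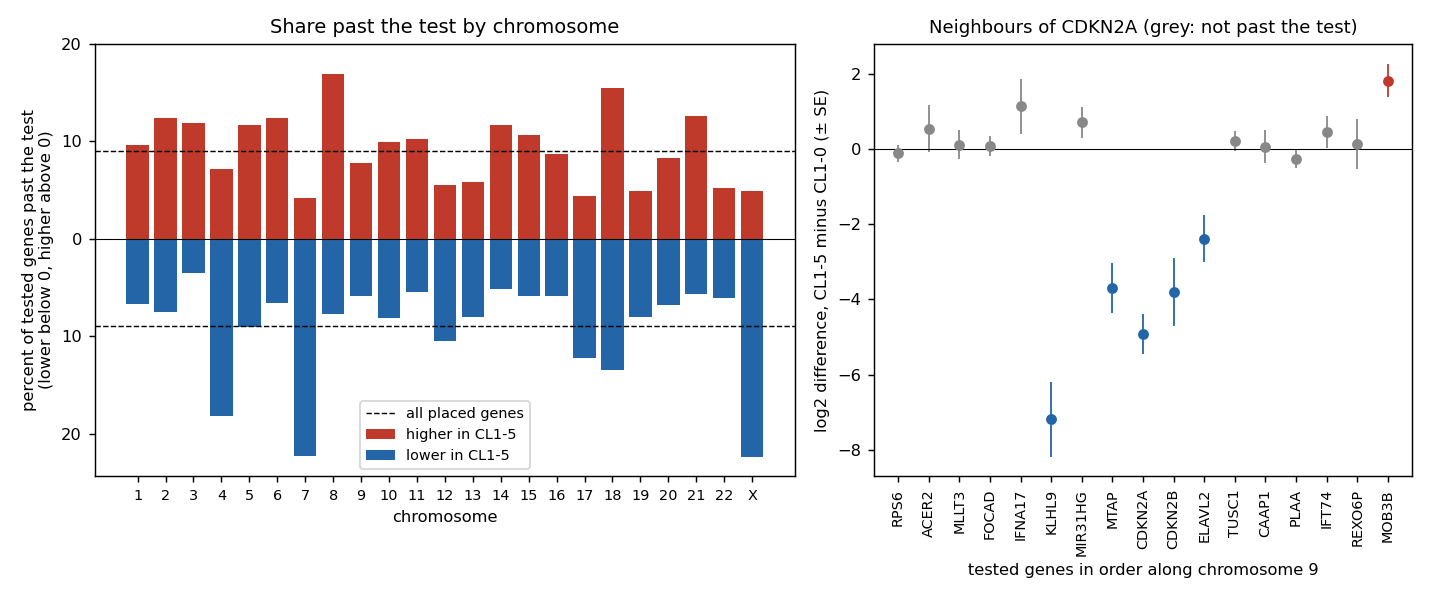
Left, percent of tested genes on each chromosome that were higher (red, above 0) or lower (blue, below 0) in CL1-5, with dashed lines at the shares over all placed genes (9.01% and 8.93%). Right, log2 difference (CL1-5 minus CL1-0, bars ± SE) of the tested genes around CDKN2A in their order on chromosome 9, where KLHL9, MTAP, CDKN2A, CDKN2B and ELAVL2 were lower and the genes flanking them were not.

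Interferon-stimulated genes, the antiviral programme that interferons switch on, had the most members higher in CL1-5 among the lists. Of 53 tested, 33 were higher and 0 lower in CL1-5, with a median log2 difference of 2.47, and 51 of the 53 had a difference above 0. Many genes of this kind carry the interferon-stimulated response element in their promoters, here searched as GAAA, any 2 bases and GAAA again, on both strands and with overlaps allowed. The 250 bases before the start of 3 members are shown with each match in capitals, from RefSeq's table for GRCh38.p14, all on the plus strand: IFIT3 at chr10:89327747-89327996, IFIT1 at chr10:89392373-89392622 and ISG15 at chr1:1013247-1013496.
IFIT3: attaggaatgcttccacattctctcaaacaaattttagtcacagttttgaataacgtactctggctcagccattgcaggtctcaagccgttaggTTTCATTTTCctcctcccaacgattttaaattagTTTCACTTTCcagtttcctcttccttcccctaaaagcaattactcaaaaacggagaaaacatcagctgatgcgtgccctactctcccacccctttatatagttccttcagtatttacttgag
IFIT1: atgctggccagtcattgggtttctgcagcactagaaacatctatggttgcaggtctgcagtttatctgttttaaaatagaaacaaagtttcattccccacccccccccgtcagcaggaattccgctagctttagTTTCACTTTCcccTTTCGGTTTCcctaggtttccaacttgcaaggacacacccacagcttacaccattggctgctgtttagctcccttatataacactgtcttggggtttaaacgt
ISG15: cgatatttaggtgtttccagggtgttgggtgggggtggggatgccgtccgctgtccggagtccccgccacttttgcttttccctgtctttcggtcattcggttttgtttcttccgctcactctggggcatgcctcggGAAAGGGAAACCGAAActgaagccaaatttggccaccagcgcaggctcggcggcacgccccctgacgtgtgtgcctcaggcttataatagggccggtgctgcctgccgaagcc

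Counted from the start, the matches begin at -156 and -122 in IFIT3, at -116 and -103 in IFIT1 and at -113 and -107 in ISG15, where they overlap. Over windows of 300 bases around the start (250 before and 50 after), 28 of the 45 list members with a RefSeq promoter (62.2%) held the motif, against 2.7% of the promoters of all genes tested and 3.65% of the 27305 promoters in the table. The share was 64.3% (18 of 28) in members that passed the test and 58.8% (10 of 17) in members that did not. A match is a sequence description and does not show that a factor was bound.

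The levels varied widely between the CL1-5 arrays. IFIT3, which binds foreign RNA together with IFIT1, gave 40.03, 57.4 and 69.1 in CL1-0 against 2506, 15701 and 2361 in CL1-5 (at least 69.9-fold higher, adjusted p = 1.1e-04). IFIT1 itself gave 9.03, 91.4 and 236 in CL1-0 against 2778, 15672 and 1532 in CL1-5 (at least 36.3-fold higher, adjusted p = 0.0035). MX1, a GTPase that traps viruses, gave 27.6, 8.86 and 7.63 in CL1-0 against 1381, 2926 and 205 in CL1-5 (at least 14.9-fold higher, adjusted p = 0.0035). PSMB8, a subunit of the immunoproteasome, gave 3.62, 6.10 and 4.29 in CL1-0 against 717, 1979.7 and 788 in CL1-5 (at least 16.4-fold higher, adjusted p = 2.9e-06). ISG15, a ubiquitin-like modifier, was expressed in both lines at 2491, 4991 and 4943 in CL1-0 against 12178, 22015 and 9055 in CL1-5 (log2 difference 1.77 ± 0.38, adjusted p = 0.0066).

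Replicate 2 of CL1-5 was the highest of the 3 arrays in 29 of the 33 genes that passed and in 17 of them lay more than 2-fold above both others. The median log2 signal of the list was 9.42, 10.8 and 8.46 on the CL1-5 arrays and 6.51, 6.88 and 7.11 on the CL1-0 arrays. Every CL1-5 array stood above every CL1-0 array in all 33 genes, as in 1250 of all 1253 higher genes. Over the whole list this held for 40 of 53 members, against 2229 of all 13882 genes. Without replicate 2 of CL1-5, 26 list members passed, all as higher.

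**Figure D5:**
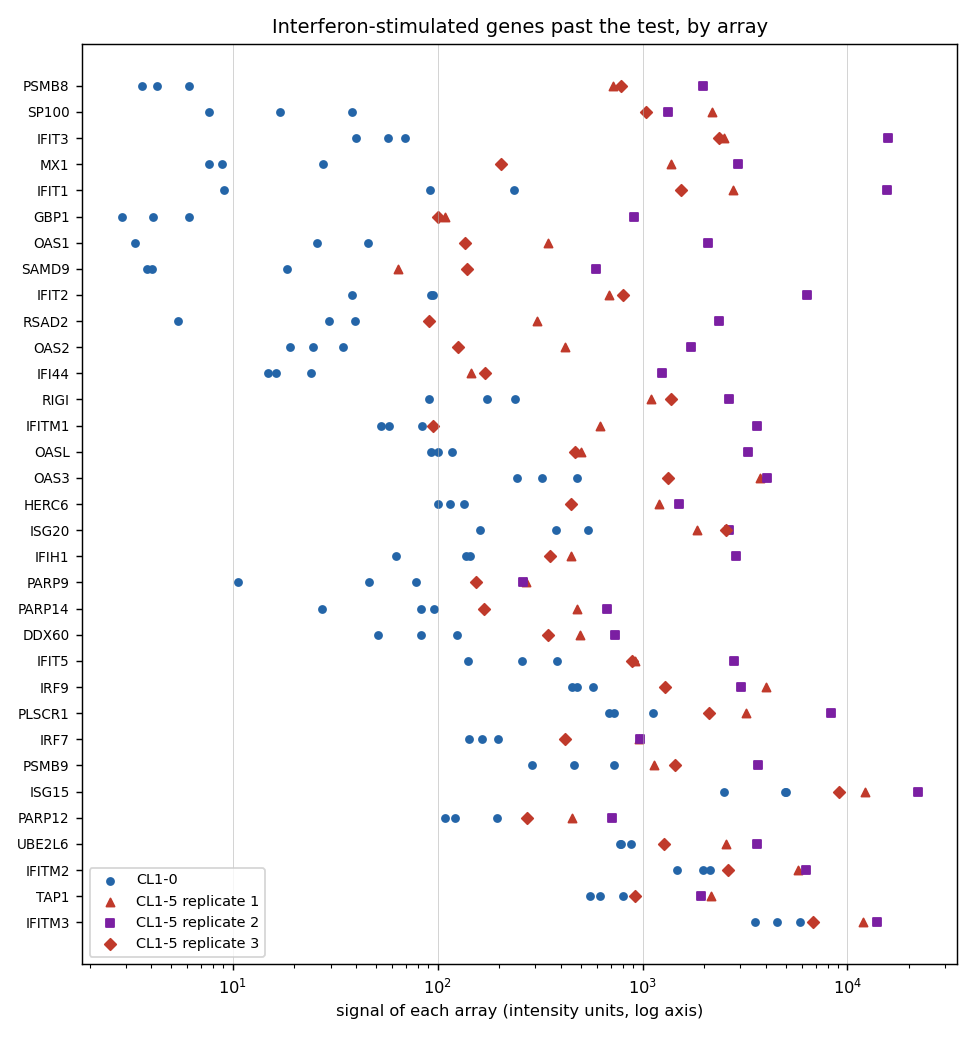
Signal of each array (horizontal log axis, intensity units) for the 33 interferon-stimulated genes that passed the test, ordered by log2 difference. Circles are CL1-0 and the other marks the 3 CL1-5 arrays, of which replicate 2 (purple squares) is the highest in 29 genes. No gene overlaps between the lines, as in 1250 of all 1253 higher genes.

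Sensors of foreign nucleic acid are the proteins that trigger interferon production. Of 25 tested, 9 were higher and 1 lower in CL1-5, with a median log2 difference of 0.73. The lower count was 0 without CL1-0 replicate 2 or 3 or CL1-5 replicate 2 or 3. STING1, the adaptor for cytosolic DNA, gave 9.10, 95.7 and 92.2 in CL1-0 against 1932, 739.8 and 913 in CL1-5 (at least 13.2-fold higher, adjusted p = 9.2e-04). IFI16, a DNA sensor, gave 33.3, 5.55 and 51.3 in CL1-0 against 349, 1828 and 499 in CL1-5 (at least 10.8-fold higher), and MYD88, the adaptor of Toll-like receptors, gave 140.3, 147 and 214 in CL1-0 against 1149.5, 1233 and 734 in CL1-5 (log2 difference 2.63 ± 0.28, adjusted p = 5.5e-05). Both pyroptosis genes of the list named here, CASP4 and GSDMD, were below the array median on all CL1-0 arrays. CASP4, which senses lipopolysaccharide inside the cell, gave 1.56, 4.82 and 8.88 in CL1-0 against 204, 475 and 364 in CL1-5 (at least 5.19-fold higher), and GSDMD, the pore it opens, gave 22.9, 12.1 and 5.12 in CL1-0 against 1097, 811 and 771 in CL1-5 (at least 14-fold higher). RIGI, the sensor of viral RNA, gave 90.9, 175 and 237 in CL1-0 against 1099, 2628 and 1369.9 in CL1-5, though its 3 probe sets gave log2 differences from -0.59 to 3.34.

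The metallothionein promoters can be set beside these. The metal response element, searched as TGCNCNC on both strands with overlaps allowed, is short and stood in 55.2% of all promoters in the table, so a single match sets few genes apart, and it stood in all 5 metallothionein promoters in the table against 63.4% of genes tested. MT2A, with 7 matches in the 250 bases before its start (plus strand, GRCh38.p14, chr16:56608334-56608583), is shown with each match in capitals.
MT2A: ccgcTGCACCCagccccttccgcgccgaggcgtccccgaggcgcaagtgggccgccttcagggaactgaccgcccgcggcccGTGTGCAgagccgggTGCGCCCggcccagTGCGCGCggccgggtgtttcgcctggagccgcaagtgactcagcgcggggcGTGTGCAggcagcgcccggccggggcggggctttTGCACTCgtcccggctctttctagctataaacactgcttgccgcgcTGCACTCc

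A stricter definition of presence was also applied, namely that all 3 arrays of one line lay above the 75th percentile of their array and all 3 of the other below its median. It was met by 56 genes for CL1-5 and 35 for CL1-0. All of them had passed the test, which compares the same values, so this adds nothing to their calls. Their promoters were read in the RefSeq table. A ratio of observed to expected CpG above 0.6, the usual mark of a CpG island, was found in 54.8% of the 42 CL1-5 genes and 43.3% of the 30 CL1-0 genes with a RefSeq promoter, against 79.6% of all genes tested. Of 8 motifs searched there on both strands, 3 are given here, picked after their values were seen. The AP-1 site TGANTCA was in 16.7% (7 of 42) of the CL1-5 genes and 3.33% (1 of 30) of the CL1-0 genes, against 4.77% of genes tested. Over all genes that passed, it was in 8.36% of the higher and 4.9% of the lower. The interferon-stimulated response element was in 13.3% (4 of 30) of the CL1-0 genes and 4.76% (2 of 42) of the CL1-5 genes, against 2.7% of genes tested. The TATA box, searched as TATAAA, was in 16.7% (5 of 30) of the CL1-0 genes and 9.52% (4 of 42) of the CL1-5 genes, against 6.04% of genes tested.

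The same lines after 2 h at 300 mV/mm were measured on 6 other arrays. Of the genes called without field, 99.6% of the higher and 99.7% of the lower had the same sign under the field. Of all genes, 45.3% had a positive difference there. In 93.7% of the higher and 93.4% of the lower genes the lines did not overlap there either, against 16.8% and 19% of all genes. The calls took their spread, filter and probe sets from all arrays of the study, those with field included. A small spread under the field thus favoured a call. The lack of overlap there is therefore partly built in and is no separate test of the calls. Log2 differences under the field were 7.60 for CDCP1, -6.64 for SPP1, 6.72 for IFIT3, 3.23 for MT2A and -5.99 for CDKN2A. For the difference between these 2 line comparisons, limma called 0 genes at an adjusted p of 0.05, and 150 genes had an unadjusted p under 0.05. That fit leaves out the replicate number, and with the replicate block 0 genes were called and 638 had an unadjusted p under 0.05.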

How the data were processed

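The 12 arrays measured total RNA on a GeneChip of 54675 probe sets. The deposited values are an intensity per probe set on a linear scale, made by the authors with MAS5 per the submitters' processing notes, and the mean of each array without its lowest and highest 2% of values is about 500.07 units. The version, background settings and detection calls are not given in the sources at hand, and the arrays' number limits the precision. Values under 1 were set to 1 and log2 was taken. Probe sets above their array's median on at least 3 arrays were kept, and a gene was read from 1 probe set, the one with the highest mean log2 signal over the 12 arrays, giving 13882 genes. Of all probe sets 41097 had 1 gene symbol, 1801 several and 11777 none, and only the first kind was used.

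The line difference was tested with limma 3.58.1 (R 4.3.3; lmFit, contrasts, eBayes with trend) on all 12 arrays, whose 4 groups share 1 estimate of the spread, with Benjamini-Hochberg adjustment over all 13882 genes. A gene is called at an adjusted p under 0.05. Errors of log2 differences are limma's moderated standard errors for 3 against 3 arrays, with the spread taken from all 12. Their median was 0.367, and 0.228 with the replicate block. The named genes are members of the gene lists or genes with large differences, besides those said to be chosen after their values were seen. The large differences were taken from the 20 largest in each direction among genes that passed without overlap of the lines. Members and lists were chosen with earlier results of these data known. Same-numbered arrays deviated together from their group means (r = 0.471, 0.278 and 0.189 for replicates 1, 2 and 3). Replicates 2 and 3 also did so across numbers (r = 0.227 and 0.199). The correlations thus set replicate 1 apart but do not pair replicates 2 and 3 by number, and no label pairs the arrays. Alternatives covered normalization, pseudocount, filters, probe set choice, the variance trend, the arrays fitted, blocks and leaving out each array. The scripts were tested on simulated data. Promoter windows are from RefSeq (GRCh38.p14), matched by gene identifier. Genes of the Y chromosome are not named, and 1 further gene list is not reported here.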

Additional observations from a re-analysis of the deposited data

How the results depend on the processing

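No gene called in the comparison was called in the opposite direction under any of the 19 alternatives, and 660 of the higher and 536 of the lower genes were called under all of them. The counts moved by more than 1.5 times in 3 settings that take the replicate into account and, for the lower genes, without replicate 3 of CL1-0. With the replicate block 2319 genes were higher and 2607 lower, with replicate 1 against replicates 2 and 3 as a block 2291 and 2561, and with only replicates 2 and 3 of each line 2003 and 2281. All 1253 higher and 1238 of the 1239 lower calls remained under the replicate block, and among the genes named above it changed 2 calls, those of KRT8 and PECAM1. Leaving out 1 array gave 942 to 1100 higher and 762 to 1121 lower genes, the lowest without replicate 3 of CL1-0. The other alternatives gave 1034 to 1275 higher and 894 to 1391 lower genes, and centring each array on its median changed the higher share of calls from 50.3% to 43.6%. Of the genes named above that passed, leaving ENO2 and DLL3 aside, 174 of 176 passed under every alternative that tested them. The neuroendocrine list, which holds ENO2 and DLL3, had 1 higher call. It had 0 without replicate 2 of CL1-0 and 0 with only the arrays without field. Counts within single lists moved by more than 1.5 times in 241 combinations of list, direction and alternative and by less in 1545. For the difference between the line comparisons with and without field, 0 genes were called in every alternative that includes the arrays with field, with 69 to 702 at an unadjusted p under 0.05; these fits were chosen after seeing the data. The cause of these changes was not tested. Folds of genes below the array median in one line rest on taking that median as the limit of measurement.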
